A study of Mus musculus with 36 samples.

Results

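The genes described here are the 32 genes of fatty acid beta-oxidation that were chosen for this work as a module, 17 of the mitochondrial and 15 of the peroxisomal pathway, in the livers of mice fed a mild-high-fat diet. They were chosen by their role, but with earlier results of these data known. They were found by the gene names and accessions in the array files, in which Dci and Peci are older names of Eci1 and Eci2. All 32 genes had a probe in the authors' processed table, which held 11653 genes named through an accession, and 42 of its 21781 probes belonged to them. Liver RNA of 36 adult male C57BL/6J mice (C57BL/6JOlaHsd in the methods) was hybridised to Agilent whole mouse genome arrays, a single mouse per array, labelled with Cy5 against a common Cy3 pool of all samples. All mice received a diet with 30 en% fat during 3 weeks of adaptation by the labels (2 weeks in the methods), and were fasted for at least 2 hr before they were killed. The baseline group (t=0, n = 12) was killed directly after the adaptation. The control group (HF, n = 12) received the same diet for 12 more weeks, and the quercetin group (HF-Q, n = 12) received it for 12 weeks with 0.33% (w/w) quercetin, a plant flavonol. The baseline mice were therefore younger and had eaten the diet for a shorter time, and these differences cannot be told apart. The comparison of the quercetin with the control group addresses the diet supplement. That of the control with the baseline group addresses the course of the experiment. The comparison of the quercetin with the baseline group holds both the course and the supplement, which cannot be told apart in it.

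Beta-oxidation shortens fatty acids from the carboxyl end by repeated dehydrogenation, hydration, a further dehydrogenation and thiolysis. In mitochondria, long-chain fatty acids enter through the carnitine shuttle and the products feed the citric acid cycle or ketone body synthesis. In peroxisomes, very-long-chain, branched and dicarboxylic fatty acids are shortened by oxidases and a separate set of enzymes, and the shortened products leave as carnitine esters. Many of these genes are targets of PPAR-alpha, a nuclear receptor of the liver that binds DNA together with RXR.

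The values below are the log2 signals of the authors' table, in which each Cy5 signal is expressed relative to Cy3 and rescaled to the median Cy3 signal of that spot over all arrays. A gene is represented by its brightest probe. The probes of all 32 genes were well above background on all 36 arrays. The Cy5 signal lay between 3.24 times background for Abcd2 and 3428 times for Acaa2, with a median over the genes of 507 times. A gene was said to be called where limma gave an adjusted p below 0.05, with the adjustment of Benjamini and Hochberg made over all 21781 probes. On bulk liver RNA, fewer cells of a type and less RNA per cell cannot be told apart.

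One array differed from the rest: on that of quercetin replicate 2, 96.7% of the spots were well above background in Cy5, against 56.4% to 67.4% on the other 35 arrays. The liver of control replicate 5 also stood apart: its summed signal of 5 pancreas genes was 23.43 on the log2 scale, against 11.98 to 12.64 in the other livers. The hepatocyte genes Alb, Apoa1, Ttr, Tat and Cps1 were at 364 to 11393 times background, and their summed log2 signal lay between 19.47 and 20.36 in all livers. Of these 5 genes Cps1 was called lower in the control (-0.32) and in the quercetin livers (-0.45) and Ttr lower in the quercetin livers (-0.33), all against baseline. Among 35 marker genes of other cell types, 11 of 35 were called between the control and the baseline group (10 higher), 5 of 35 between the quercetin and the baseline group (4 higher) and 2 of 35 in the comparison of quercetin with control mice, while 20.9%, 11.7% and 2.77% of all 21781 probes were called. The median summed log2 signal of the macrophage genes was 14.83 in the baseline group (range 14.22 to 16.14), 15.28 in the control group (14.90 to 15.99) and 15.27 in the quercetin group (14.86 to 15.69). That of the red cell genes was 16.21 (15.65 to 16.57), 16.93 (16.58 to 18.57) and 17.30 (16.91 to 17.94), in the same order. The 3 red cell genes did not all rise: against baseline, 2 were called higher and 1 lower (-0.26) in the quercetin group. In the control group 2 were called higher and 1 lay below 0 (-0.14) without a call. Of the 7 macrophage genes, 3 were called higher in the control group and 0 in the quercetin group, against baseline. Bile duct genes, 5 in number, had 3 called higher in the control against the baseline group. Between the quercetin and the control group 1 bile duct gene was called, as lower. The part of these markers in the results below was not tested.

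Promoter sequences are shown for 3 genes with a call: Cpt1a, which was lower in the control group, and Acadvl and Acaa1b, a mitochondrial and a peroxisomal gene that were higher in the quercetin group, each against baseline. They were chosen with their values known. They were read from RefSeq, build GRCm38.p6, and cover the 250 bases before the start of the gene, 5′ to 3′ on the strand of the gene. Cpt1a lies on the plus strand at chr19:3323051-3323300, Acadvl on the minus strand at chr11:70015429-70015678 and Acaa1b on the minus strand at chr9:119157094-119157343. Capitals mark AGGTCA on either strand, the half-site of nuclear receptors.
Cpt1a: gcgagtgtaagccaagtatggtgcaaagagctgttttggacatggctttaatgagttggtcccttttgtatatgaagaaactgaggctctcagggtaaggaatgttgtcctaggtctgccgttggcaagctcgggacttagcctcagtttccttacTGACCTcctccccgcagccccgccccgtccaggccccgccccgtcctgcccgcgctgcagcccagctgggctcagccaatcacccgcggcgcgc
Acadvl: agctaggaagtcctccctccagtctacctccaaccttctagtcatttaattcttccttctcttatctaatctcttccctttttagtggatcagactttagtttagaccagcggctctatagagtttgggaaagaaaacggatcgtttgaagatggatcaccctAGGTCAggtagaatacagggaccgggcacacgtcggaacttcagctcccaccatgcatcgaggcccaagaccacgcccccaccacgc
Acaa1b: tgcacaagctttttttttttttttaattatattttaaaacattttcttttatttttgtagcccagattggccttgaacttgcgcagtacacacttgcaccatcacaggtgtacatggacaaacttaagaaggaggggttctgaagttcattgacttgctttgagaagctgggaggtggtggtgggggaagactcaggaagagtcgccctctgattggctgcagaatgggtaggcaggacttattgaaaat
The reference held 28 promoter entries for 26 of the 32 genes, and all motifs were searched on both strands. AGGTCA occurred in 5 of these 28 entries, those of Acadm, Acadvl, Cpt1a, Echs1 and Scp2, and in 14.0% of all 32851 promoter entries. The direct repeat AGGTCANAGGTCA, which contains the half-site, was found in none of the 26 genes and in 0.033% of all entries. CCAAT occurred in 11 of the 28 entries against 33.9% of all entries, GGGCGG in 17 of the 28 against 32.7%, and CACGTG in none against 6.02%. A match describes these letters in this window and is not a binding site.

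Between the control and the baseline group, 4 of the 32 genes were called, 3 lower and 1 higher after 12 weeks, while 20.9% of all 21781 probes were called, 9.63% lower and 11.3% higher. Decr1 and Cpt1a had the largest changes and were lower in the control group, Acox3 was lower and Acaa1b was higher. The median log2 change over the 32 genes was -0.08 (-0.01 over all probes), with -0.07 over the mitochondrial and -0.08 over the peroxisomal genes. Of the 32 changes, 23 were below 0 (20 of 32 without control replicate 5, when 3 genes and 21.4% of all probes were called). With loess normalization of the scanner signals in place of the authors' scaling, 9 of the 32 genes were called, all lower, while 22.9% of all probes were called, and the median log2 change was -0.13, with 27 of 32 below 0. For no gene were the ranges of 2 groups free of overlap, and the share of all probes without overlap was not determined. The genes called with loess were Cpt1a, Decr1, Acox2, Acox3, Hadhb, Hadh, Echs1, Hsd17b4 and Decr2.

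Cpt1a encodes carnitine palmitoyltransferase 1A, the rate-limiting enzyme of the entry of long-chain fatty acids into mitochondria. Its log2 signal ranged from 13.99 to 14.59 in the baseline group (median 14.26), from 13.58 to 14.35 in the control group (median 13.80) and from 13.75 to 14.78 in the quercetin group (median 14.05). The ranges overlapped, but 11 of 12 control livers lay below the baseline median. The probe lies at chr19:3385374-3385433 of build mm8, and Cpt1a was 1.29-fold lower in the control than in the baseline group (log2 change -0.37, standard error 0.09, adjusted p = 0.00324, limma), and the difference was negative within 9 of 9 slides. The quercetin group differed from the baseline group by -0.16 (adjusted p = 0.272, limma) and from the control group by 0.21 (adjusted p = 0.22, limma), neither of which was called. The second probe of Cpt1a gave -0.51 and -0.26 for the control and the quercetin group against baseline, both called, and 0.25 between the quercetin and the control group. The brightest probe is spotted 10 times on each array, with a median SD between spots of 0.03 log2 units, against 0.23 between livers of a group.

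Decr1 encodes the mitochondrial 2,4-dienoyl-CoA reductase, an auxiliary enzyme needed for unsaturated fatty acids. Its log2 signal ranged from 9.34 to 10.14 in the baseline group (median 9.92), from 9.14 to 9.77 in the control group (median 9.38) and from 9.43 to 10.24 in the quercetin group (median 9.59). All 12 control livers lay below the baseline median, and the control was lower within 9 of 9 slides. The probe lies at chr4:15844647-15844706 of build mm8, and Decr1 was 1.35-fold lower in the control than in the baseline group (log2 change -0.43, standard error 0.09, adjusted p = 0.000458, limma). The quercetin group differed by -0.19 from baseline (adjusted p = 0.144, limma) and by 0.24 from the control group (adjusted p = 0.136, limma). The second Decr1 probe fell by 0.36 in the control group against baseline and was also called. Cpt1a and Decr1 were called lower in the control group under each of the 15 alternative settings.

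**Figure D1:**
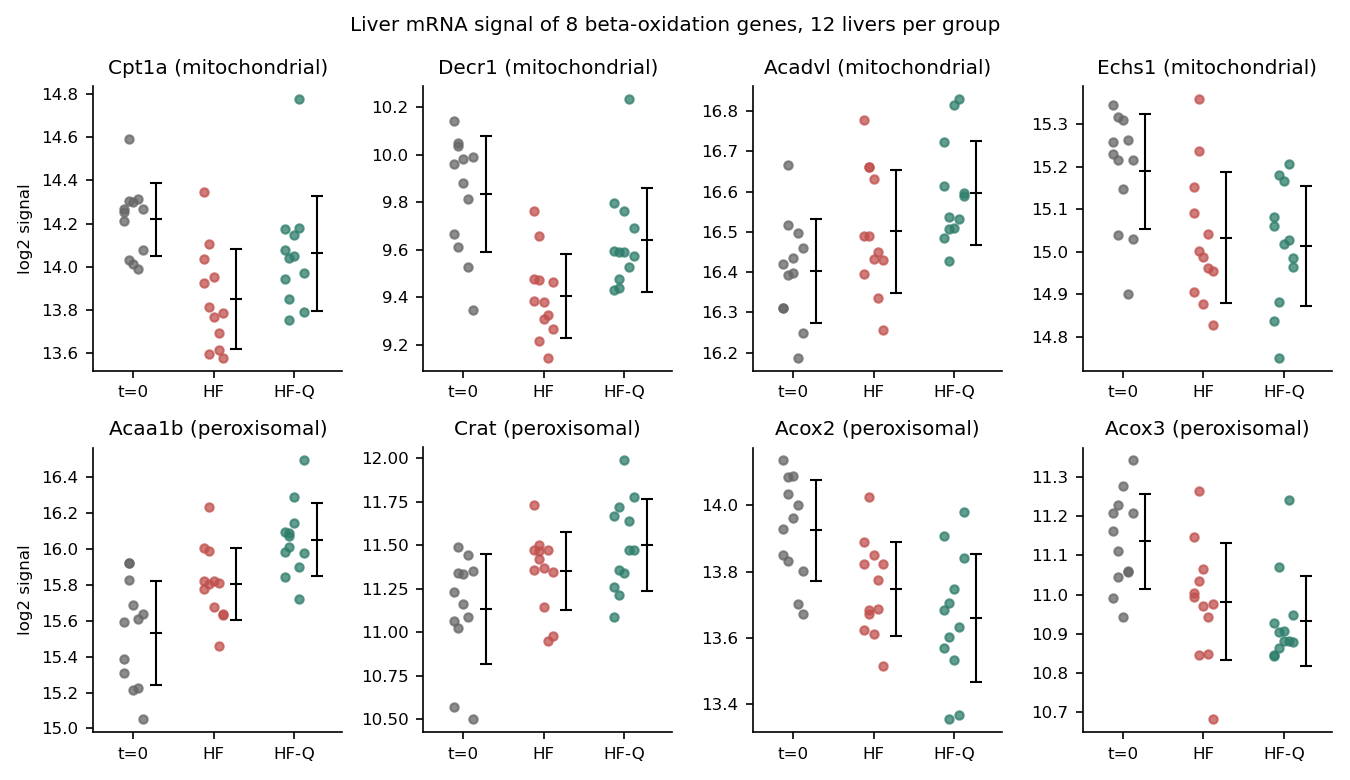
Log2 signal of the 8 genes called in a comparison with the baseline group, by liver (points, 12 per group), with the mean and SD of each group beside them (horizontal mark and bars). The ranges overlap in every panel; Decr1 and Cpt1a lie lowest in HF, Acaa1b and Crat highest in HF-Q.

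Acox3 and Acox2 encode peroxisomal acyl-CoA oxidases of branched-chain substrates. Acox3 had a median log2 signal of 11.14 in the baseline group (range 10.94 to 11.34), 10.99 in the control group (10.68 to 11.26) and 10.89 in the quercetin group (10.84 to 11.24). It was lower by 0.15 in the control group (log2 change -0.15, adjusted p = 0.0413, limma) and by 0.20 in the quercetin group (log2 change -0.20, adjusted p = 0.0132, limma) against baseline. The first of these calls was lost with the slide as a block (adjusted p = 0.0977, limma) and without control replicate 5 (log2 change -0.13, adjusted p = 0.0806, limma), and also with the Cy5 channel alone, the methods' t-test, the 2 groups alone and the replicate block. The call in the quercetin group was lost with the Cy5 channel alone. Acox2 had a median of 13.94 in the baseline group (13.67 to 14.14), 13.73 in the control group (13.52 to 14.03) and 13.66 in the quercetin group (13.35 to 13.98). It was lower in the quercetin than in the baseline group (log2 change -0.26, standard error 0.07, adjusted p = 0.00838, limma), and its change in the control group was -0.18 (adjusted p = 0.0582, limma). This change of Acox2 in the control group was called under 10 of 15 alternative settings, and that of Acox3 under 9. Among the 10 were loess (adjusted p = 0.00433, limma) and the slide block (adjusted p = 0.0312, limma). Both oxidases were lower in 11 of 12 quercetin livers than the baseline median.

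Acaa1b encodes a peroxisomal 3-ketoacyl-CoA thiolase, the enzyme of the last step of the cycle. Its log2 signal ranged from 15.05 to 15.92 in the baseline group (median 15.60), from 15.46 to 16.23 in the control group (median 15.81) and from 15.72 to 16.49 in the quercetin group (median 16.04). All 12 quercetin livers and 11 of 12 control livers lay above the baseline median. The probe lies at chr9:118996906-118996965 of build mm8, and Acaa1b was 1.43-fold higher in the quercetin than in the baseline group (log2 change 0.52, standard error 0.09, adjusted p = 0.000264, limma), within 9 of 9 slides, and 1.21-fold higher in the control than in the baseline group (0.27, adjusted p = 0.0319, limma). With loess normalization the second difference was 0.20 and no longer called (adjusted p = 0.0955, limma). That call was kept under 10 of the 15 alternative settings. The quercetin and the control group differed by 0.25 (adjusted p = 0.16, limma).

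Acaa1a, which is also on chromosome 9 and encodes a closely related thiolase, has 3 probes that did not give the same call. Its brightest probe differed by 0.20 between the quercetin and the baseline group (adjusted p = 0.204, limma), while the other 2 probes gave 0.38 and 0.46, both called. The probe with 0.38 was also called for quercetin against control (0.30, adjusted p = 0.043, limma), a call that was lost with the slide as a block (0.27, adjusted p = 0.133, limma). The files list accessions of both Acaa1a and Acaa1b for the probe with 0.46, so its signal cannot be assigned to one of these genes. Scp2, sterol carrier protein 2, whose longer product is a peroxisomal thiolase for branched chains, had changes between -0.04 and 0.02 in the 3 comparisons, none called.

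Between the quercetin and the baseline group, 6 of the 32 genes were called, 3 higher (Acaa1b, Crat and Acadvl) and 3 lower (Acox2, Acox3 and Echs1), while 11.7% of all probes were called, 6.46% higher and 5.28% lower. This comparison shares its baseline livers with the previous one, so that the values of both are given side by side and were not correlated. The median log2 change over the 32 genes was 0.04 (0.01 over all probes), and 17 of the 32 changes were above 0. Loess normalization called the same 6 genes and, in addition, Decr1 as lower, while 14.3% of all probes were called.

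Crat encodes carnitine acetyltransferase, which converts short acyl-CoA into carnitine esters in peroxisomes and mitochondria. Its log2 signal ranged from 10.50 to 11.49 in the baseline group (median 11.20), from 10.95 to 11.73 in the control group (median 11.40) and from 11.09 to 11.99 in the quercetin group (median 11.47). Of the quercetin livers, 11 of 12 lay above the baseline median. Crat was 1.29-fold higher in the quercetin than in the baseline group (log2 change 0.37, standard error 0.11, adjusted p = 0.0197, limma), and was called under each of the 15 alternative settings. The control group differed from baseline by 0.22 (adjusted p = 0.137, limma).

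Acadvl encodes very-long-chain acyl-CoA dehydrogenase, which catalyses the first step of the mitochondrial cycle on long chains. Its median log2 signal was 16.41 in the baseline group (16.19 to 16.67), 16.47 in the control group (16.26 to 16.78) and 16.56 in the quercetin group (16.43 to 16.83). All 12 quercetin livers lay above the baseline median. It was 1.14-fold higher in the quercetin than in the baseline group (log2 change 0.19, standard error 0.06, adjusted p = 0.0245, limma), a call that was lost with the Cy5 channel alone (0.10, adjusted p = 0.358, limma). None of the other acyl-CoA dehydrogenases, Acadm, Acadl and Acads for medium, long and short chains, was called between the quercetin and the baseline group, with log2 changes of 0.15, 0.13 and -0.04.

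Echs1 encodes the short-chain enoyl-CoA hydratase of the mitochondrial matrix. Its median log2 signal was 15.22 in the baseline group (14.90 to 15.35), 14.99 in the control group (14.83 to 15.36) and 15.02 in the quercetin group (14.75 to 15.21). All 12 quercetin livers lay below the baseline median. Its log2 change in the quercetin group was -0.18 (standard error 0.06, adjusted p = 0.0491, limma), a call close to the threshold, which was lost with the slide as a block (adjusted p = 0.0707, limma) and without quercetin replicate 2 (-0.15, adjusted p = 0.0856, limma). In the control group it was -0.16 (adjusted p = 0.0584, limma).

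**Figure D2:**
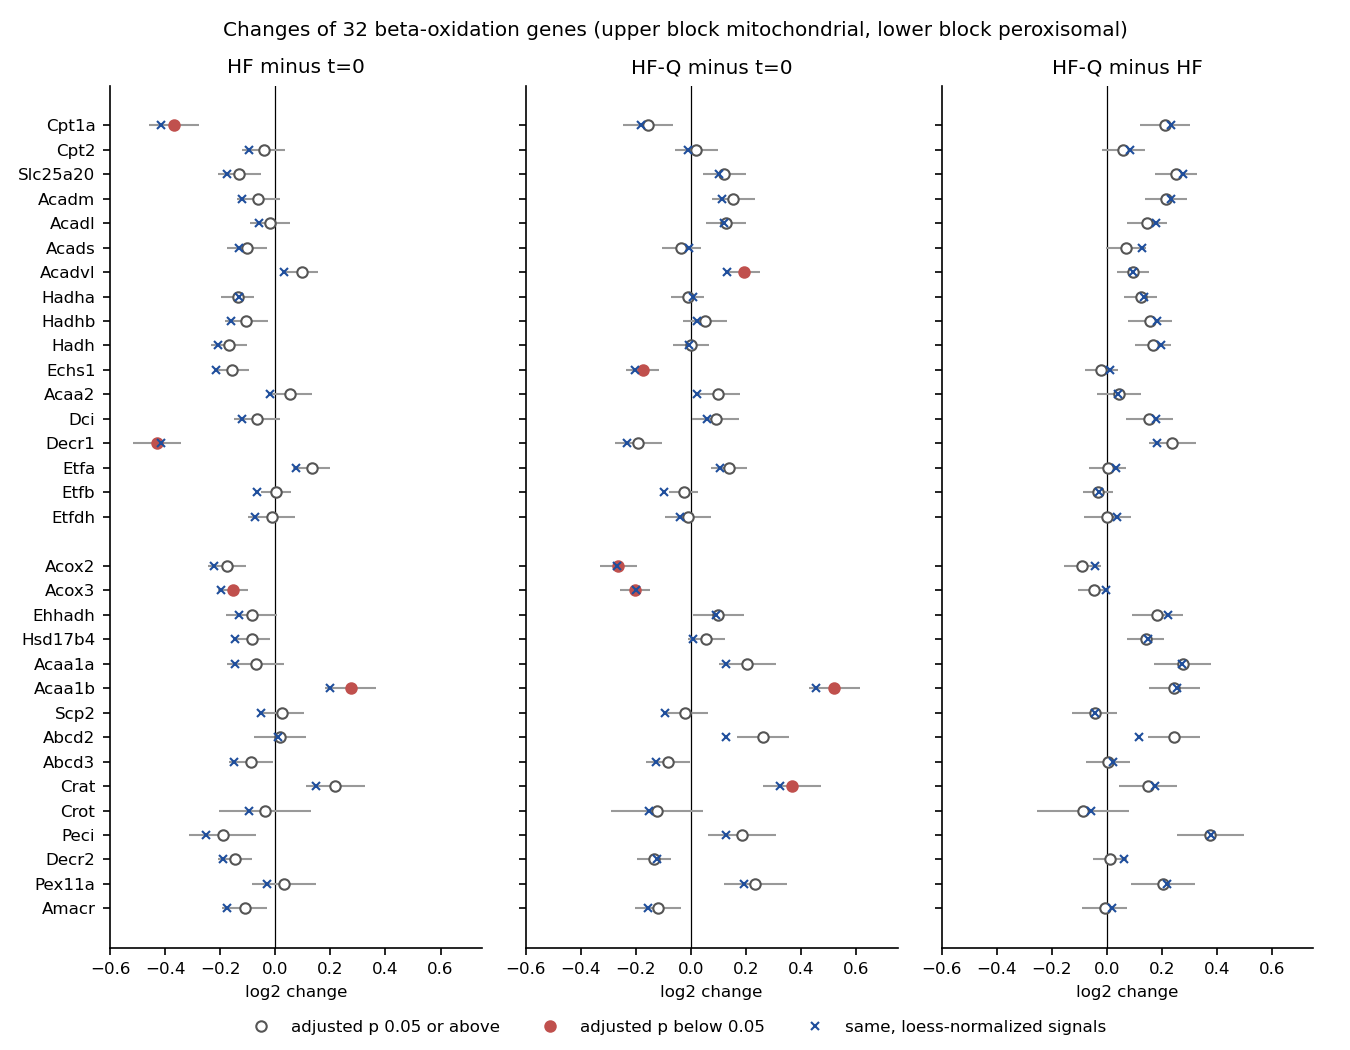
Log2 change of the 32 genes in the 3 comparisons (circles, with standard error; filled red where called) and the same with loess-normalized scanner signals (blue crosses). Most crosses lie to the left of the circles in the comparison of HF with t=0; in HF-Q minus HF 25 of 32 circles lie above 0 and none is filled.

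Between the quercetin and the control group, 0 of the 32 genes were called by limma, while 2.77% of all probes were called, 1.73% higher and 1.04% lower. At an unadjusted p under 0.05 in the limma fit, 12 of the 32 genes differed, and 3630 of the 21781 probes. The methods' t-test after Benjamini-Hochberg adjustment also called 0 genes. The median log2 change over the 32 genes was 0.13 (0.01 over all probes), and 25 of the 32 changes were above 0 (22 of 32 without control replicate 5). The largest were those of Peci, Acaa1a (0.28) and Slc25a20. Peci, the peroxisomal enoyl-CoA isomerase for unsaturated chains, ranged from 15.58 to 16.67 in the control group (median 16.03) and from 16.15 to 17.03 in the quercetin group (median 16.37), with all 12 quercetin livers above the control median and a difference of 0.38 (adjusted p = 0.0885, limma). Slc25a20, the carnitine-acylcarnitine carrier of the inner membrane, ranged from 10.74 to 11.32 in the control group (median 10.95) and from 10.83 to 11.64 in the quercetin group (median 11.21), with a difference of 0.25 (adjusted p = 0.067, limma). Acadm ranged from 14.91 to 15.55 (median 15.10) and from 15.20 to 15.70 (median 15.35), with a difference of 0.22 (adjusted p = 0.131, limma). With loess normalization 3 of the 32 genes were called, Peci, Slc25a20 and Acadm, with differences of 0.38, 0.28 and 0.23. In that setting 2.56% of all probes were called.

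The remaining genes gave no call in a comparison with their brightest probe. The trifunctional protein, which catalyses the later steps of the cycle on long chains, is encoded by Hadha and Hadhb, and these had log2 changes of -0.14 and -0.11 in the control group and of -0.01 and 0.05 in the quercetin group against baseline. A second, dimmer probe of Hadha fell by 0.36 in the control group and was called (adjusted p = 0.0483, limma), at 3.98 times background, but kept the call in 5 of 14 alternatives and lost it with the slide as a block (adjusted p = 0.0878, limma). Hadh, the 3-hydroxyacyl-CoA dehydrogenase of short chains, had -0.17 in the control group. Acaa2, the mitochondrial thiolase, had 0.06 and 0.10, and Dci, the mitochondrial enoyl-CoA isomerase, -0.07 and 0.09. Etfa, Etfb and Etfdh, which pass electrons from the dehydrogenases to the respiratory chain, had values between -0.03 and 0.14 in both groups. The carnitine palmitoyltransferase of the inner membrane, Cpt2, had -0.04 and 0.02.

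Of the peroxisomal genes, Ehhadh and Hsd17b4, the multifunctional enzymes, had log2 changes of -0.09 each in the control group and of 0.10 and 0.06 in the quercetin group against baseline. Pex11a, a membrane protein of peroxisome division, had 0.03 and 0.23. Decr2 and Amacr, a reductase for unsaturated and a racemase for branched substrates, had -0.15 and -0.11 in the control group and -0.13 and -0.12 in the quercetin group. The transporter of long and branched acyl-CoA into peroxisomes, Abcd3, had -0.09 and -0.08. Abcd2, a related transporter close to background, had 0.02 and 0.26, while its second probe gave -0.31 in the control group (called) and 0.10 in the quercetin group. That probe was also called for quercetin against control (0.40, adjusted p = 0.00678, limma), at 2.87 times background, but not with loess normalization (0.17, adjusted p = 0.165, limma). Crot, the octanoyltransferase that makes carnitine esters of shortened chains, had -0.04 and -0.12, with the widest spread between livers of the 32 genes in each group, an SD of 0.40 to 0.49.

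Of 41 other genes of fatty acid uptake, activation, oxidation, ketone body synthesis and their regulation, 40 had a probe in the table. Between the control and the baseline group, 8 of 40 were called, 2 higher and 6 lower, against 20.9% of all probes, with a median log2 change of -0.10. The higher ones were Dbi, the acyl-CoA binding protein (0.49), and Acsl3, a fatty acyl-CoA synthetase (0.49). Among the lower ones were Ppargc1b, a coactivator of PPAR-alpha and other receptors (-0.62), Slc27a1, a fatty acid transport protein (-0.31), and Acadsb, a dehydrogenase of branched short chains (-0.30). Between the quercetin and the baseline group, 7 of 40 were called against 11.7% of all probes, 2 higher (Dbi, 0.31, and Bdh1, a dehydrogenase of ketone bodies, 0.22) and 5 lower. The lower ones included Pcca (-0.33) and Mut (-0.24), which convert propionyl-CoA, and also Pex11g, a protein of peroxisome division (-0.24), and Acad8, a dehydrogenase of valine breakdown (-0.20). Slc22a5, the plasma membrane carnitine transporter, was the single gene of the 40 called for quercetin against control, where 2.77% of all probes were called (0.42, adjusted p = 0.0461, limma), and this call was lost under 6 alternatives, among them the fit without control replicate 5. Ppara itself had changes between -0.04 and 0.02 in the 3 comparisons, none called.

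The livers of a group also differed from each other in these genes together. The median deviation of the 32 genes from their group means ranged from -0.23 to 0.19 log2 units among baseline livers, from -0.24 to 0.35 among control livers and from -0.14 to 0.24 among quercetin livers. Control replicate 1 was highest and control replicate 5, the liver with the pancreas signal, was lowest. In control replicate 1, 29 of the 32 genes lay above their group mean and in control replicate 7 all 32 did, while in control replicates 5 and 9 1 of the 32 did. With loess normalization control replicate 1 (0.24) and quercetin replicate 4 (0.21) were still high and baseline replicate 10 (-0.20) low, while control replicate 5 had -0.08. The baseline livers of replicate 1 to 6 had a median deviation of 0.01 (-0.23 to 0.07) and those of replicate 7 to 12 of 0.05 (-0.22 to 0.19).

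**Figure D3:**
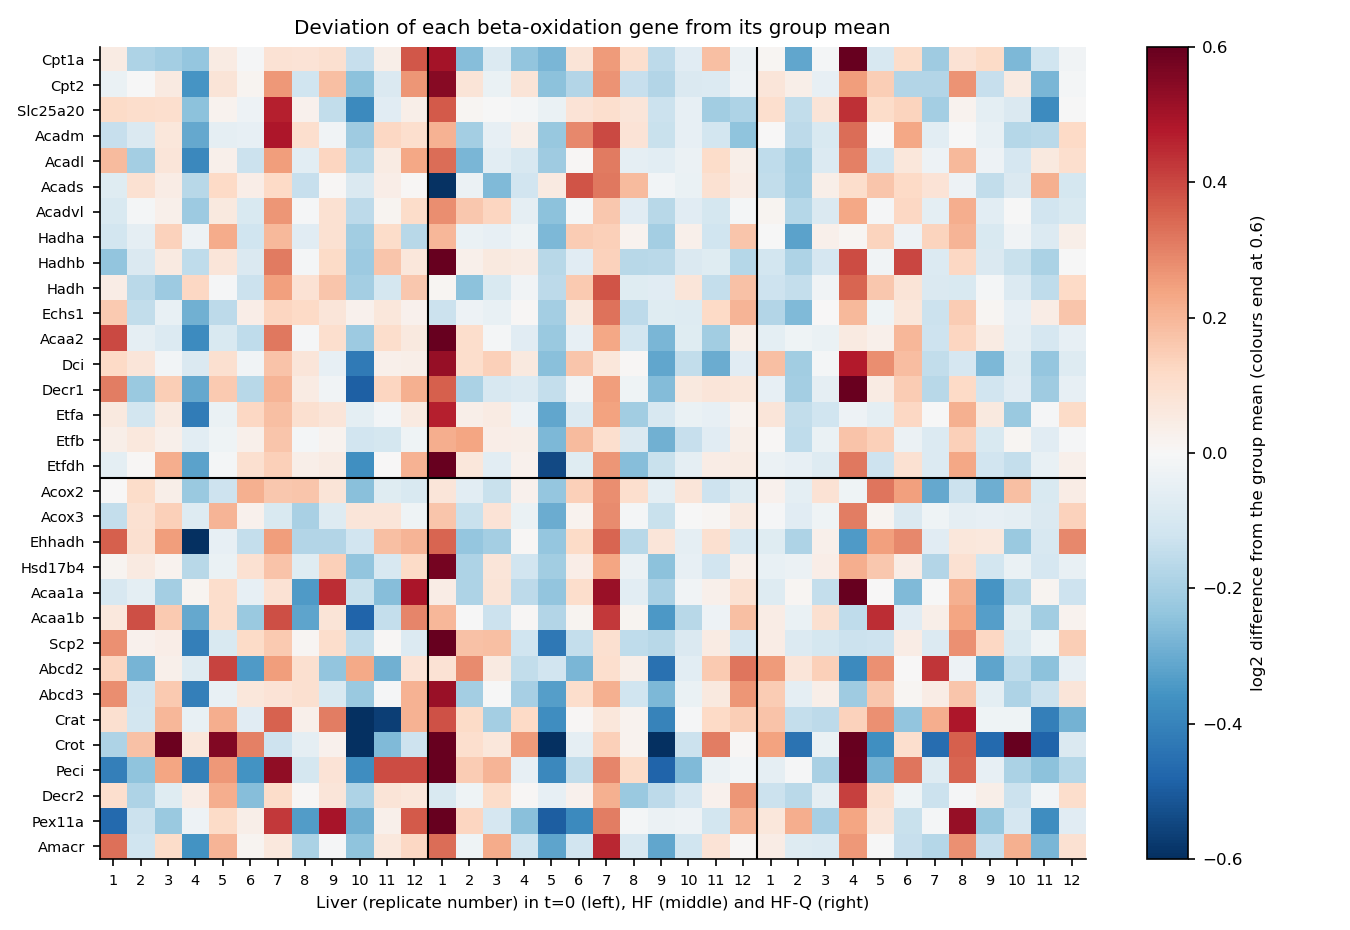
Deviation of each of the 32 genes (rows, mitochondrial above the line and peroxisomal below) from its group mean in each of the 36 livers (columns), in log2 units. Columns of one colour, such as HF replicates 1 and 7 and HF-Q replicate 4 (red) and t=0 replicates 4 and 10 and HF replicate 5 (blue), are livers in which most of the genes lay on the same side.

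The 496 pairs of the 32 genes were correlated over the 36 livers after removal of the group means. The median Pearson r was 0.45, and 467 of the 496 pairs were above 0. It was 0.55 among the 136 mitochondrial pairs, 0.39 among the 105 peroxisomal pairs and 0.43 among the 255 pairs of both kinds. By group, the median r was 0.44 among baseline livers, 0.62 among control livers (0.56 without replicate 5 and 0.55 without replicate 1) and 0.39 among quercetin livers. These correlations share the arrays and the scaling of the table, which is not adjusted for signal intensity: the 5353 probes at least as bright as the 10th percentile of the genes (a mean Cy5 signal of 2089) had a median r of 0.16 over the same livers, and 0.16, 0.25 and 0.11 within the groups. With loess normalization the median r of the 32 genes was 0.26, with 420 of 496 pairs above 0. That of 5273 probes above the same lower limit of the Cy5 signal was 0.01. This limit does not match the probes to the genes in brightness. Within the groups the median r of the 32 genes with loess normalization was 0.31, 0.33 and 0.23. With slide means removed as well, the value for the table was 0.48.

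**Figure D4:**
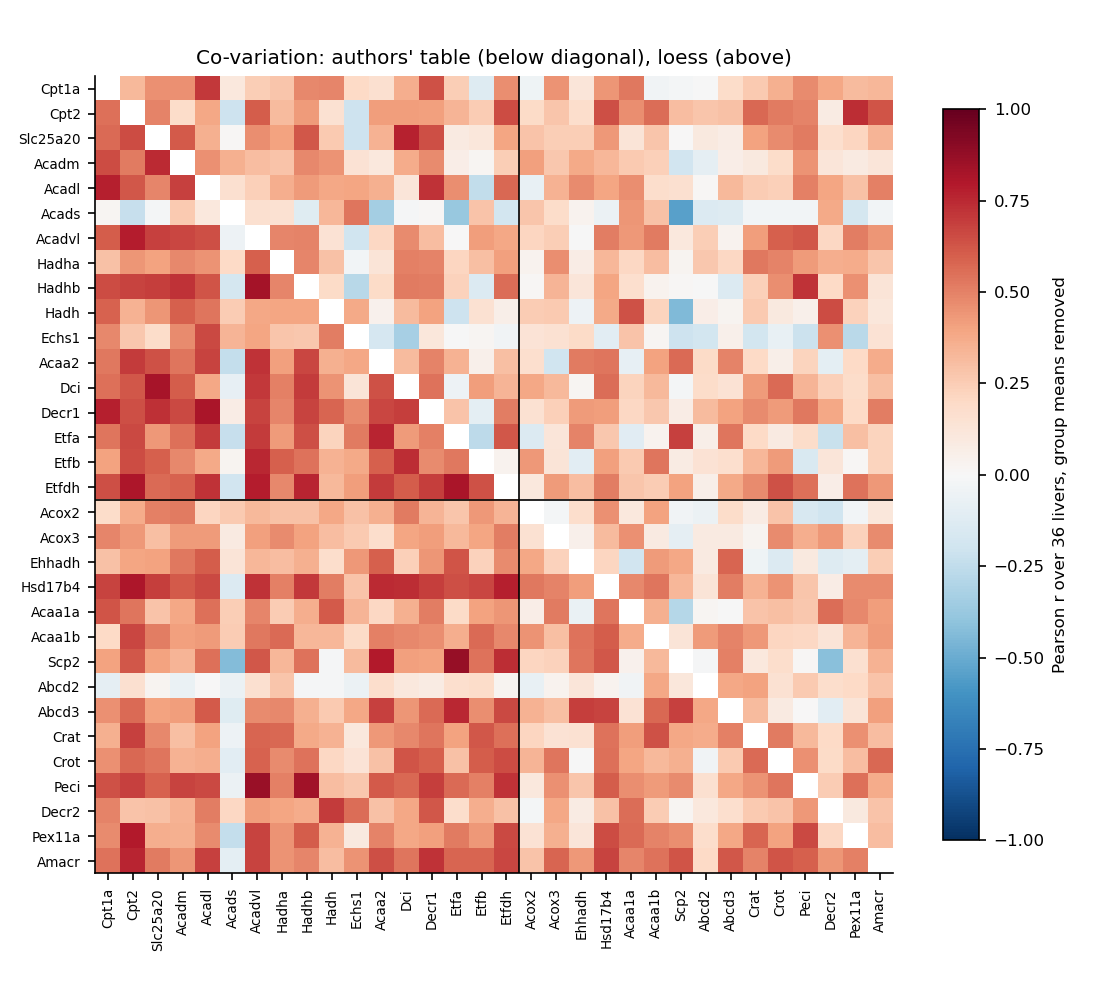
Pearson r of each pair of the 32 genes over 36 livers after removal of group means, from the authors' table (below the diagonal) and from loess-normalized signals (above), with lines between mitochondrial and peroxisomal genes. The median r is 0.45 below and 0.26 above the diagonal; Acads and Abcd2 have low r with most genes below it, which for Acads rests on HF replicate 1 (r with the median of the others -0.02, and 0.38 without it).

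With loess normalization, Etfdh (r = 0.74), Decr1 (0.73) and Cpt2 (0.72) were closest to the median of the other 31 genes, and Echs1 (-0.05), Acads (-0.01) and Etfb (0.17) were farthest. The pairs with the highest r were Slc25a20 and Dci (0.77), Cpt2 and Pex11a (0.74), and Hadhb and Peci (0.73). The lowest r was that of Acads and Scp2 (-0.54). The low values of Acads rested on control replicate 1, in which its log2 signal was 10.60, the lowest of that group (median 11.21). Without this liver the r of Acads with the median of the other genes was 0.45 with loess and 0.38 in the authors' table, and that with Scp2 was -0.33 and -0.09. Within the groups its loess r with the other genes was 0.62 for baseline, -0.50 for control and 0.48 for quercetin livers.

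A family of 18 pairs with shared function was tested within each group of 12 livers, 54 correlations in all, with 100000 permutations and Benjamini-Hochberg adjustment over the 54. Of the 54, 24 passed in the authors' values, 8 among baseline, 10 among control and 6 among quercetin livers, and with loess normalization 4 of these remained. These are counts for Pearson's r: by Spearman's rho 2 of the 54 passed in the authors' values and 4 with loess normalization. Etfa, a subunit of the electron transfer flavoprotein, and Etfdh, its oxidoreductase, had the highest r, in the control group (r = 0.97, permutation p = 1e-05, the smallest the permutations can give, adjusted p = 0.00054; rho = 0.87, permutation p = 0.00048, adjusted p = 0.0259). It was 0.91 without the 2 livers farthest from the median, 0.91 with loess normalization and 0.72 with both. Crat and Crot, which both make carnitine esters, also varied together in the control group (r = 0.91, permutation p = 0.00026, adjusted p = 0.00468; rho = 0.78, permutation p = 0.00389, adjusted p = 0.0547; 0.75 without the 2 livers). Hadha and Hadhb varied together in the baseline group (r = 0.74, permutation p = 0.00612, adjusted p = 0.0413; rho = 0.68, permutation p = 0.0182, adjusted p = 0.0894; 0.68 without the 2 livers). Decr1 and Dci did so in the quercetin group (r = 0.83, permutation p = 0.00113, adjusted p = 0.0127; rho = 0.83, permutation p = 0.00132, adjusted p = 0.0356; 0.60 without the 2 livers). With loess normalization and without the 2 livers, r was 0.69 for Crat and Crot, 0.74 for Hadha and Hadhb and 0.77 for Decr1 and Dci. Differences of r between the groups were not tested. Of the other pairs that passed in the table, Cpt2 and Slc25a20 in the control group had r = 0.71 but -0.03 without the 2 livers farthest from the median, and Ehhadh and Hsd17b4 in the control group 0.67 and 0.01, so that these relations rest on those livers, as did that of Cpt1a and Pex11a in the control group (0.68 and 0.13). Acadm and Acadvl had r = 0.89 in the baseline group and 0.60 with loess normalization, which did not pass. Etfa and Etfb, subunits of one protein, had r = 0.67 in the control group but -0.40 with loess normalization. The remaining pairs that passed in the table had r between 0.65 and 0.83, and between 0.31 and 0.78 without the 2 livers, and none of them passed with loess normalization.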

How the data were processed

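Liver RNA of 36 mice was measured on 36 two-colour Agilent arrays, and groups and replicate numbers were taken from the sample titles. Scanner files, as deposited, hold the intensity of each spot in Cy5 and Cy3, quantified with Agilent Feature Extraction 10.5.1.1 per the labels. The authors' table holds log2 values of 23256 spots. Recomputed from the scanner files, these equal the log2 ratio of Cy5 over Cy3, multiplied by the median Cy3 of the spot over the arrays and set to the same median on every array (largest difference 0.0023), without background subtraction or intensity-dependent normalization. Spots of a probe were averaged, which left 21781 probes, of which 16104 were named through their accession. Columns of per-sample values that were not used: 0.

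All 36 arrays entered 1 limma fit (lmFit and eBayes, limma 3.58.1, R 4.3.3), two-sided, with Benjamini-Hochberg adjustment over all probes and a threshold of 0.05. A gene is represented by the probe with the highest mean Cy5 signal. The number of arrays limits the precision. In simulated data for the control against the baseline group, 21781 probes were drawn independently and only 100 probes per size of change were altered. Of these, 79 of 100 with a log2 change of 0.4 and 17 of 100 with 0.2 were recovered, and 3 unchanged probes were called. In the data 20.9% of all probes were called, and the adjusted threshold depends on that share. The simulated recovery therefore does not give the recovery in this comparison. Correlations were tested with 100000 permutations (numpy 2.4.6), and figures drawn with matplotlib 3.10.9. Named with values were the called genes, other probes that changed a call, gene pairs that passed and the highest and lowest r, and of the other genes of the pathway at most the 6 called ones with the largest change per comparison. Some genes of that list are counted but not reported here by name. Peci, Slc25a20 and Acadm were added after their values were seen. Alternatives were other sources and scalings of the values (normexp with loess, processed signals, median centring, quantiles, Cy5 alone), filters, the methods' t-test, the 2 groups alone, slide or replicate as a block, array weights and omission of single arrays. The members and lists were chosen with earlier results of these data known. Chosen after seeing the data were loess without background subtraction, the background of r, and the omission of control replicates 1 and 5. Whether replicates of 1 group were housed or processed together is not given in the sources used here, and p-values measure the spread between these mice.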

Additional observations from a re-analysis of the deposited data

How the results depend on the processing

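Cpt1a and Decr1 (lower in the control than in the baseline group) and Acaa1b, Crat and Acox2 (quercetin against baseline) were called in the same direction under each of the 15 alternative settings. The number of the 32 genes called between the control and the baseline group was 4 in the authors' table (20.9% of all probes called), and 9 with normexp and loess (22.9%), 8 with the Feature Extraction processed signals (23.9%), 9 with quantile normalization (22.2%), 7 with normexp and loess over all probes (10.9%) and 9 with loess without background subtraction (22.0%). The share called higher fell from 1 of 4 to 0 of 9 with loess. Between the quercetin and the control group the number of the 32 genes called was 0 in the authors' table (2.77% of all probes called). It was 3 with each of these 5 settings (2.56%, 2.45%, 2.64%, 1.03% and 2.5% of all probes, in the order given). It was 2 with array weights (3.73%), and 2 where any probe of a gene counted. By that last rule 6 genes were called for the control and 8 for the quercetin group against baseline. The share of all genes called by it was not determined. For the 40 other genes of the pathway, the 8 calls between the control and the baseline group became 17 with normexp and loess, 17 with processed signals, 17 with quantile normalization, 14 over all probes, 19 with array weights (29.1% of all probes) and 15 with loess without background subtraction. The 7 calls between the quercetin and the baseline group became 11 with array weights (20.4% of all probes). The single call between the quercetin and the control group became 3 with quantile normalization (2.64% of all probes) and 3 with array weights (3.73%). Loess without background subtraction (2.5%) gave 2. It became 0 with the Cy5 channel alone (0.808%), the methods' t-test (1.8%) and the 2 groups alone (2.36%). The slide block (1.48%), the replicate block (2.54%) and omission of control replicate 5 (3.01%) also gave 0. The cause was not tested.

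The median r of the genes fell with normexp and loess from 0.45 to 0.26 over all livers, from 0.44 to 0.31 in the baseline, from 0.62 to 0.33 in the control and from 0.39 to 0.23 in the quercetin group, and with loess without background subtraction to 0.31 over all livers and 0.33 in the control group. In the control group it was 0.56 without replicate 5 and 0.55 without replicate 1.

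The replicate numbers are shared between groups. Residuals of livers with the same number had a median correlation of 0.06, 0.03 and -0.01 in the 3 comparisons, with 4, 4 and 3 of 12 pairs over 0.1. The highest was 0.36, 0.28 and 0.15, and 3, 1 and 2 of 12 livers correlated best with their own number. Whether the numbers pair mice cannot be decided from these correlations. With the replicate block, 4, 6 and 0 of the 32 genes were called (21.1%, 11.6% and 2.54% of all probes), as many as without it. Hadh was then called in place of Acox3 and Abcd2 in place of Echs1. With the slide block 4, 5 and 0 were called (18%, 10.1% and 1.48% of all probes). The methods' t-test called 3, 6 and 0 (20.3%, 11.4% and 1.8% of all probes). The median log2 change of the genes between the control and the baseline group was -0.13 with loess, processed signals, quantile normalization and Cy5 alone, and -0.05 without control replicate 5, against -0.08. Between the quercetin and the baseline group it was 0.04, and between -0.01 and 0.04 under the alternatives. It was -0.08, 0.03 and 0.13 with the slide block, and its sign was that of the whole comparison within 6, 5 and 7 of 9 slides.

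Abcd2 and the second probes of Hadha, Decr1 and Abcd2 lie close to background, which limits their values. The stricter filter on dim probes left 31 of the 32 genes.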
